A study of Homo sapiens with 6 samples.

Results

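The genes described here are the cyclins, cyclin-dependent kinases (CDKs) and CDK inhibitors of the G1 phase of the cell cycle, together with their main substrate, in human INA-6 myeloma cells that received interleukin-6 (IL-6). They were found by gene symbol in the probe table of the array, a rule with no threshold on a measured value, although the set was put together with earlier results of these data known: the D-type cyclins CCND1, CCND2 and CCND3, the kinases CDK4 and CDK6, the E-type cyclins CCNE1 and CCNE2, the inhibitors CDKN1B (p27) and CDKN2C (p18), and RB1. These 10 genes, of 17411 genes named on the array, were covered by 18 probes of 27216 probes with a gene symbol. INA-6 is a myeloma line of human origin that needs IL-6 to survive, a cytokine whose receptor activates the transcription factor STAT3. Restimulated cells had been without IL-6 for 13 h and were then given IL-6 for 1 h, and withdrawn cells had been without IL-6 for the same 13 h. There were 3 arrays of each, described by the labels as biological replicates. Cells kept in IL-6 throughout were not analysed here. All arrays stem from 1 cell line, and since nothing says that the replicates were separate cultures grown at separate times, the p-values cover no more than the variation among these 6 arrays, part of which may be technical.

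G1 is the interval in which a cell decides whether to copy its DNA. D-type cyclins bind CDK4 or CDK6 and begin to phosphorylate RB1, which in its unphosphorylated form holds E2F transcription factors inactive, and cyclin E with CDK2 completes that step and starts S phase. CDKN2C blocks CDK4 and CDK6, CDKN1B restrains cyclin E with CDK2, and in myeloma an excess of 1 of the D-type cyclins is a known hallmark of the disease.

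Each probe gave a quantile-normalised log2 intensity, on which 1 unit is a doubling. The array medians lay between 6.84 and 6.85, and that median is used below as the floor above which a probe was tested: a probe entered the test if it was above the median of its array on at least 3 of the 6 arrays. Negative control spots could not be told apart by name, so the median stands in for a background level that is not known. Levels of different probes are not compared with each other, since probes differ in brightness. SOCS3, a direct target of STAT3, served as the check of the labels. Its log2 intensities were 11.54, 11.46 and 11.79 in restimulated cells and 7.73, 7.54 and 7.91 in withdrawn cells, a difference of 3.87 ± 0.13 (SE, adjusted p = 0.000634 in the fit of 1 probe per gene, limma). Of the plasma cell and myeloma markers, 7 of 8 were tested, and PRDM1, a regulator of plasma cell differentiation, was higher (10.72 in restimulated and 9.43 in withdrawn cells, difference 1.29 ± 0.07, SE, adjusted p = 0.00286, limma). XBP1, IRF4 and SLAMF7 differed by 0.71 ± 0.12, 0.49 ± 0.11 and 0.41 ± 0.08 (SE) without overlap of the groups but did not pass, and SDC1, the surface marker of plasma cells, averaged 11.23 in restimulated and 11.39 in withdrawn cells. The median log2 difference of the 7 markers was 0.411, against 0.008 over all genes. The summed log2 level of the list lay between 78.2 and 79.1 in restimulated cells and between 75.7 and 76.2 in withdrawn cells. The groups did not overlap for 4 of the 7 tested markers of this list, all higher, against 1544 of all 12703 genes. No gene of the mature B cell, T and NK cell, myeloid, fibroblast or erythroid lists passed the threshold. Of these lists, CD2, CR2 and ALAS2 had groups without overlap and were lower, by −0.45 ± 0.09, −0.16 ± 0.07 and −0.52 ± 0.26 (SE). None of the 4 fibroblast markers, nor MS4A1, CD3D, LYZ or CSF1R, lay above the array median often enough to be tested. PAX5, CR2, CD3E, CD2, NKG7, CD14, ITGAM, HBA1, HBB and ALAS2 did and were tested. CD14 averaged 9.33 in restimulated and 9.88 in withdrawn cells, CD3E 9.22 and 9.40, and PAX5 8.46 and 8.45. The plasma cell marker CD38 averaged 8.50 and 8.58, so signal above the array median does not set these lists apart.

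After 1 h of IL-6 no G1 gene passed the threshold. Of the 18 probes 15 were tested and 3, all for CCND2, were not, and of the 15 none had an adjusted p of 0.05 or less (limma, Benjamini-Hochberg over all 122102 tested probes). Across all tested probes 2239 passed, 1.83% of them, of which 2119 were higher (1.74%) and 120 were lower in restimulated cells (0.0983%). With 1 probe per gene, 0 of 9 tested G1 genes passed, while 31 of 12703 genes did, 0.244%. Beside these background rates, a count of 0 among 15 probes or 9 genes is not a result about the G1 genes. The differences were small and ran both ways, with 8 probes positive and 7 negative, and 2 of the 15 had an unadjusted p under 0.05: the CCNE2 probe, which was higher, and 1 of the CDKN1B probes, which was lower. The values of the 2 groups did not overlap for the same 2 probes, 13.3% of the 15, against 17.4% of all tested probes. Most of the 122102 tested probes have no gene symbol, so these are not rates for mRNA probes alone. Of the 18613 tested probes with a symbol, 94 passed in the same fit. With 1 probe per gene, the groups did not overlap for 2 of the 9 G1 genes, against 1544 of 12703 genes.

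**Figure D1:**
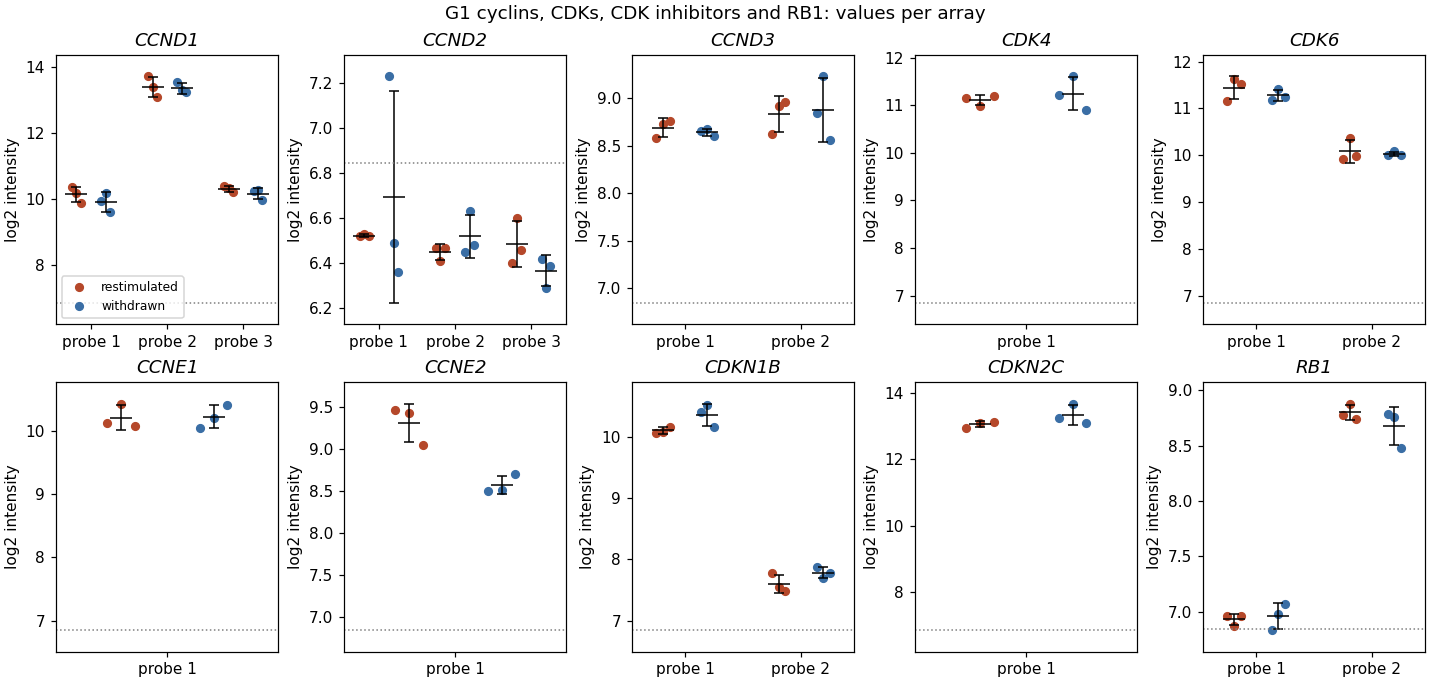
Log2 intensity (vertical axis, a separate scale in each panel) of every probe of the 10 G1 genes on the 3 restimulated arrays (red, left) and the 3 withdrawn arrays (blue, right), with the mean and SD as bars and the array median as a dotted line. The CCNE2 points of the groups are apart, 9.05 to 9.46 in restimulated and 8.50 to 8.70 in withdrawn cells, while the CCND2 points lie below the array median except for 1 withdrawn array.

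Among the D-type cyclins, all 3 CCND1 probes were above the array median on all 6 arrays, and the CCND2 probes were at the floor. The 1st CCND1 probe had log2 intensities of 10.35, 10.18 and 9.88 in restimulated cells and 9.95, 10.19 and 9.60 in withdrawn cells. The 2nd had 13.72, 13.38 and 13.10 in restimulated and 13.54, 13.30 and 13.23 in withdrawn cells. The 3rd had 10.38, 10.34 and 10.20 in restimulated and 10.23, 10.27 and 9.96 in withdrawn cells. The groups overlapped on each of the 3 probes, and the log2 differences were 0.23 ± 0.19, 0.05 ± 0.18 and 0.15 ± 0.10 (SE). On each of these probes the level of the restimulated arrays was highest on replicate 1 and lowest on replicate 3, so that the spread between replicates was larger than the difference between groups. As the mean over the 3 probes the CCND1 difference was 0.14 ± 0.14 (95% interval −0.19 to 0.48, adjusted p = 0.885, limma).

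CCND2, the cyclin whose gene is driven by MAF in a subset of myelomas, was not above the array median often enough to be tested on any of its 3 probes. Its 1st probe had 6.52, 6.53 and 6.52 in restimulated and 7.23, 6.49 and 6.36 in withdrawn cells, and withdrawn replicate 1 was the only array on which any CCND2 probe was above the median. The 2nd probe had 6.47, 6.41 and 6.47 in restimulated and 6.45, 6.63 and 6.48 in withdrawn cells, and the 3rd 6.40, 6.60 and 6.46 in restimulated and 6.42, 6.29 and 6.39 in withdrawn cells. The lowest value on the arrays was 5.83. A change of CCND2 was not tested at this signal, whose distance from the background is not known, and the low signal does not show that the gene is silent.

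CCND3, the D-type cyclin most used by normal lymphocytes, was above the median on every array. Its 1st probe had 8.58, 8.73 and 8.76 in restimulated and 8.65, 8.67 and 8.60 in withdrawn cells. With a difference of 0.05 ± 0.07 (SE, 95% interval −0.12 to 0.22) it was the most tightly measured of the G1 probes. Its 2nd probe, with 8.62, 8.92 and 8.96 in restimulated and 8.84, 9.23 and 8.56 in withdrawn cells, differed by −0.05 ± 0.19 (SE), and the mean over both probes had an interval from −0.29 to 0.29.

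The catalytic partners of the D-type cyclins were measured well above the median. CDK4 had log2 intensities of 11.16, 10.98 and 11.19 in restimulated cells and 11.22, 11.61 and 10.91 in withdrawn cells. The withdrawn arrays held both the highest and the lowest CDK4 value, and the difference was −0.14 ± 0.19 (SE, adjusted p = 0.821, limma). The 1st probe of CDK6 had 11.16, 11.63 and 11.53 in restimulated and 11.18, 11.41 and 11.24 in withdrawn cells, and its 2nd probe 9.91, 10.36 and 9.98 in restimulated and 10.01, 10.08 and 10.01 in withdrawn cells. On both CDK6 probes the highest value came from restimulated replicate 2 and the lowest from restimulated replicate 1, and over both probes the difference was 0.10 ± 0.12 (SE, 95% interval −0.19 to 0.40).

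The 2 E-type cyclins share CDK2 as their partner. CCNE1 had 10.14, 10.44 and 10.08 in restimulated cells and 10.06, 10.21 and 10.42 in withdrawn cells. Its groups overlapped, and its difference of −0.01 ± 0.14 (SE, 95% interval −0.35 to 0.33) was the smallest of the 15. CCNE2 had 9.46, 9.42 and 9.05 in restimulated cells and 8.50, 8.51 and 8.70 in withdrawn cells, so that the lowest restimulated array was above the highest withdrawn array. The CCNE2 means were 9.31 ± 0.23 in restimulated and 8.57 ± 0.11 in withdrawn cells (SD, n = 3 each), and the log2 difference was 0.74 ± 0.13 (SE), 1.67-fold with a 95% interval from 1.33- to 2.10-fold.

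The CCNE2 probe did not pass the test over all probes (unadjusted p = 0.00161, adjusted p = 0.0679, limma), nor over 1 probe per gene (adjusted p = 0.198). Its call depended on the setting: the adjusted p over all probes was 0.0143 without the 1715 spots that sat at the upper limit of the scale on all arrays, 0.00892 with an intensity trend and a robust prior, 0.00649 with a minimum interquartile range of 0.5, 0.0428 without restimulated replicate 3 and between 0.136 and 0.223 without any 1 of the other 5 arrays. CCNE2 was represented by 1 probe, so that no other probe of the gene bears on its value.

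**Figure D2:**
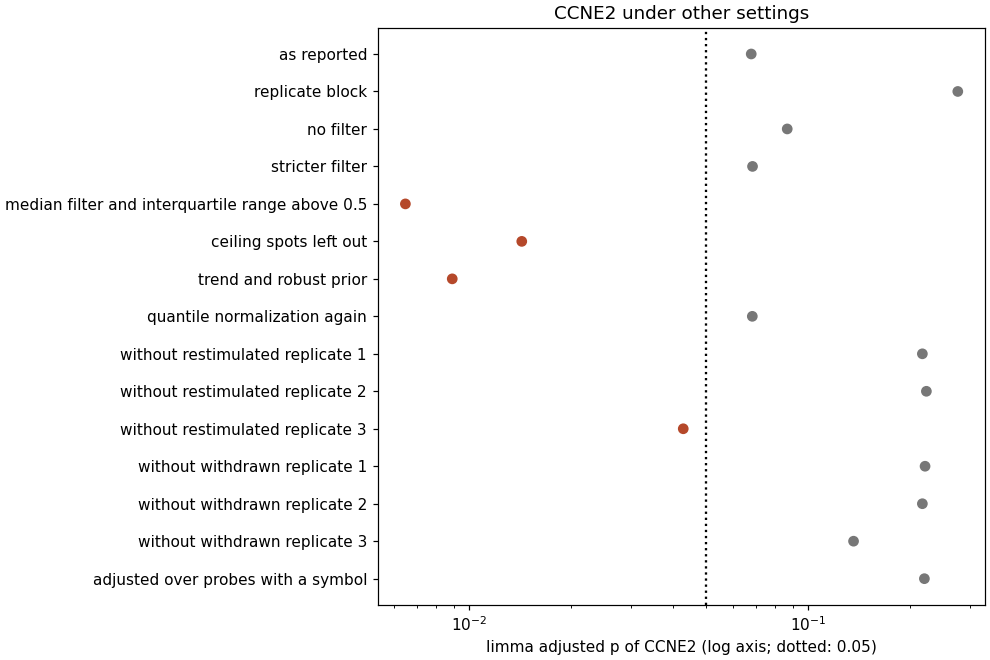
Adjusted p of the CCNE2 probe (horizontal log axis) in the fit as reported and in each alternative, 1 per row, with those at or under 0.05 in red and the threshold as a dotted line. The value as reported is 0.0679, and the alternatives lie between 0.00649 and 0.276.

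Over the 6 arrays, the genes whose values were most like those of CCNE2 were GPALPP1 and VPS37B (both with Pearson's r = 0.995) and NPAT (r = 0.989). These were the highest of 12703 genes compared over 6 arrays that fall into 2 groups, and r is given as a description only. VPS37B, a subunit of the ESCRT-I sorting complex, averaged 11.56 in restimulated and 10.74 in withdrawn cells, with a difference of 0.82 ± 0.16 (SE, adjusted p = 0.248). NPAT, a substrate of cyclin E with CDK2 that activates histone genes, averaged 8.43 in restimulated and 8.33 in withdrawn cells, a difference of 0.10 ± 0.05 (SE, adjusted p = 0.719), and GPALPP1 differed by 0.29 ± 0.07 (SE, adjusted p = 0.382). None of the 3 passed the gene test.

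The 2 probes of CDKN1B and the 1 probe of CDKN2C gave negative differences, none of them past the threshold. Over all 12703 genes, 6758 differences were positive and the others were not. Of the 4 other CDK inhibitors tested, 2 had a positive difference. The 1st probe of CDKN1B had 10.06, 10.08 and 10.16 in restimulated cells and 10.40, 10.51 and 10.16 in withdrawn cells. The groups of this probe did not overlap, but restimulated replicate 3 and withdrawn replicate 3 were equal after rounding, and the difference was −0.26 ± 0.10 (SE, unadjusted p = 0.0476, adjusted p = 0.366, limma). The 2nd CDKN1B probe, on average 0.85 above the array median, had 7.77, 7.55 and 7.48 in restimulated and 7.87, 7.69 and 7.78 in withdrawn cells. It differed by −0.17 ± 0.10 (SE, adjusted p = 0.535, limma). Both probes together gave −0.22 ± 0.07 (SE, 95% interval −0.39 to −0.04), with an adjusted p of 0.539 over all genes. The probe of CDKN2C, an inhibitor that acts on CDK4 and CDK6 and is needed for normal plasma cells in mice, had 12.95, 13.10 and 13.14 in restimulated cells and 13.26, 13.68 and 13.09 in withdrawn cells. The CDKN2C groups overlapped through withdrawn replicate 3, and the difference was −0.28 ± 0.16 (SE, 95% interval −0.68 to 0.13, adjusted p = 0.562). Without withdrawn replicate 2, the highest of the 6 values, the CDKN2C difference was −0.109.

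RB1, the substrate of both kinase complexes, was measured by a probe close to the floor and by a clearer one. The 1st RB1 probe had 6.96, 6.87 and 6.96 in restimulated and 6.83, 6.98 and 7.07 in withdrawn cells, above the median on 5 of 6 arrays, so that its difference of −0.03 ± 0.08 (SE) says little. The 2nd probe had 8.78, 8.88 and 8.74 in restimulated and 8.79, 8.76 and 8.48 in withdrawn cells. Its difference was 0.12 ± 0.10 (SE, 95% interval −0.13 to 0.37), and the lowest of the 6 values was that of withdrawn replicate 3. The log2 difference without that array was 0.0219.

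**Figure D3:**
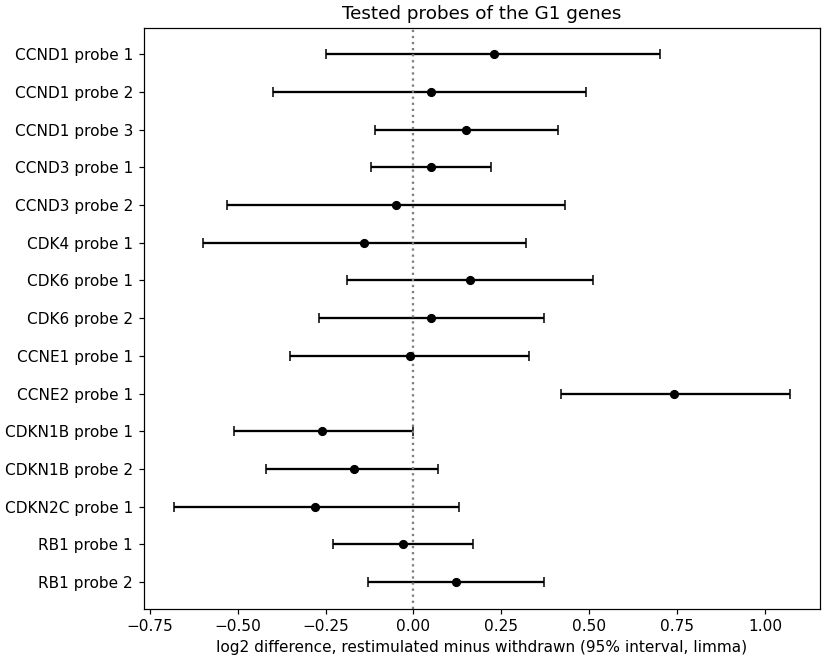
Log2 difference, restimulated minus withdrawn (horizontal axis), of the 15 tested probes of the G1 genes, with the 95% interval from limma as bars. CCNE2 stands at 0.74 with an interval from 0.42 to 1.07, and the other 14 intervals reach 0 or, for the 1st CDKN1B probe, end just below it.

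Leaving out CCNE2, the 95% intervals of the other 14 probes lay within 0.622- to 1.63-fold. A change of intensity beyond these bounds lay outside every interval, while smaller changes were not resolved with 3 arrays a group. For a probe close to the floor, such as the 1st RB1 probe, the interval does not bound the change of the mRNA. The half-widths of the intervals were between 0.17 and 0.48 log2 units. The withdrawn arrays differed from each other on many of these probes. Withdrawn replicate 2 was the highest of its group on 9 of the 15 probes (60%, against 37.8% of all tested probes) and withdrawn replicate 3 the lowest on 9 (60%, against 42.2%), and the part of these differences in the results was not tested.

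The rest of the pathway was read from 6 lists, which held 61 further genes, of which 60 had a probe and 56 were tested. Of these 56 genes, 1 was higher and none was lower in restimulated cells, and the median log2 difference was 0.039, against 0.008 over all 12703 genes, of which 30 were higher and 1 was lower. Of the other CDK inhibitors 4 of 5 were tested and none passed. CDKN2B (p15), an inhibitor of CDK4 and CDK6, differed by −0.12 ± 0.11, and CDKN2D (p19), of the same family, by 0.07 ± 0.10 (SE). CDK2, the partner of the E-type cyclins, had 8.73, 8.91 and 8.69 in restimulated cells and 8.45, 8.16 and 8.75 in withdrawn cells, and differed by 0.33 ± 0.16 (SE, adjusted p = 0.708 over 1 probe per gene). The groups of CDK2 overlapped through withdrawn replicate 3. CDK7, the kinase that activates other CDKs, differed by −0.12 ± 0.10 (SE), and none of the 4 tested genes of CDK activation passed.

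Of the pocket proteins and E2F factors, which stand between RB1 and the S phase genes, 10 of 12 were tested, none passed and the median difference was −0.039. E2F5 and E2F1 had the smallest p, with differences of 0.17 ± 0.09 (SE, adjusted p = 0.716) and 0.16 ± 0.10 (SE, adjusted p = 0.767). None of the 10 genes for the turnover of cyclins and p27 passed either. FBXO4, an F-box protein reported to act on cyclin D1, differed by −0.12 ± 0.07, and CUL1, the scaffold of the SCF ubiquitin ligases, by 0.10 ± 0.06 (SE). The E2F target genes of S phase, 16 of 17 tested, had a median difference of 0.048 and none passed. TYMS, which makes thymidylate, had 10.80, 10.82 and 10.84 in restimulated cells and 10.63, 10.62 and 10.55 in withdrawn cells, a difference of 0.22 ± 0.06 (SE, adjusted p = 0.448), and POLA1, the catalytic subunit of DNA polymerase alpha, differed by −0.20 ± 0.14 (SE, adjusted p = 0.782).

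The gene that passed was among the 12 upstream regulators, all tested. BCL6, a transcriptional repressor whose known targets in B cells include CCND2 and which STAT3 can induce, had 8.38, 8.35 and 8.26 in restimulated cells and 6.44, 6.47 and 6.53 in withdrawn cells, with an adjusted p of 0.000634 (limma over 1 probe per gene). All 3 withdrawn BCL6 values were below the array median, so the probe entered the test through the restimulated arrays alone. With no filter on low values its adjusted p was 0.000516. The measured means, 8.33 in restimulated and 6.48 in withdrawn cells, differ by 1.85, but the withdrawn level has only a bound, and with each withdrawn value set to the median of its array BCL6 was at least 2.80-fold higher in restimulated cells. STAT3 had 10.36, 10.40 and 10.18 in restimulated and 9.83, 9.85 and 9.82 in withdrawn cells. This STAT3 probe, 1 of 3 tested for the gene, passed over all probes (difference 0.48 ± 0.07, SE, adjusted p = 0.047) but not over 1 probe per gene (adjusted p = 0.172). The other tested STAT3 probes did not pass. MAF, FOXO1, KLF2, FOXO3 and FOXO4 are named here after their values were seen. MAF, which drives CCND2 in some myelomas, had 8.29, 7.90 and 8.04 in restimulated and 8.68, 8.61 and 8.46 in withdrawn cells (difference −0.51 ± 0.12, SE, adjusted p = 0.382). FOXO1, a factor that activates CDKN1B in other cells, had 8.88, 9.05 and 8.97 in restimulated and 8.67, 8.80 and 8.42 in withdrawn cells (difference 0.34 ± 0.11, SE, adjusted p = 0.521). The groups of both did not overlap, in opposite directions, and neither passed. Of the 12 upstream regulators, a list chosen with earlier results known, 5 had groups without overlap, against 1544 of all 12703 genes. KLF2 was also lower without overlap (−0.31 ± 0.12, SE). FOXO3 and FOXO4, of the same family as FOXO1, differed by −0.25 ± 0.15 and 0.05 ± 0.07 (SE), with overlap of the groups.

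**Figure D4:**
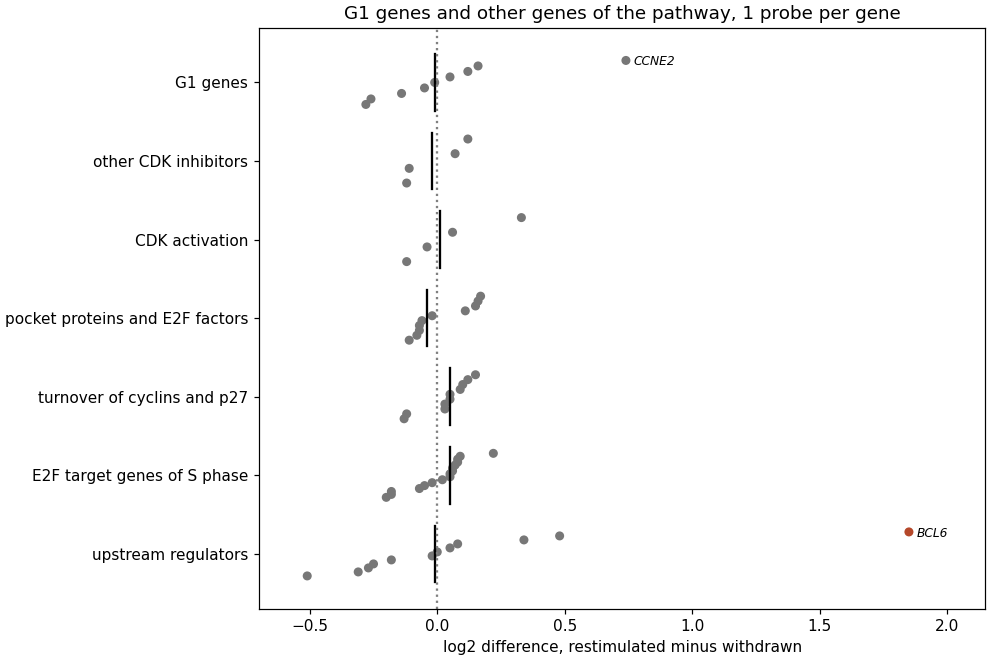
Log2 difference, restimulated minus withdrawn (horizontal axis), of each tested gene of the G1 group and the 6 pathway lists, 1 probe per gene, with list medians as black lines and genes past the threshold in red. BCL6, plotted at its measured 1.85 although its withdrawn values were below the array median, is past the threshold, and CCNE2 at 0.74 lies farthest to the right among the G1 genes.

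Promoter sequences are given for CCNE1 and CDKN1B, the E-type cyclin that differed least and the inhibitor with negative differences on both probes, so that the letters can be set beside the values above. They are the 250 bases before the annotated start of each gene, from RefSeq (GRCh38.p14), on the plus strand and 5′ to 3′, for CCNE1 at chr19:29811741-29811990 and for CDKN1B at chr12:12717118-12717367. Capitals mark the GC box, GGGCGG on either strand, which is bound by factors of the SP family.
CCNE1: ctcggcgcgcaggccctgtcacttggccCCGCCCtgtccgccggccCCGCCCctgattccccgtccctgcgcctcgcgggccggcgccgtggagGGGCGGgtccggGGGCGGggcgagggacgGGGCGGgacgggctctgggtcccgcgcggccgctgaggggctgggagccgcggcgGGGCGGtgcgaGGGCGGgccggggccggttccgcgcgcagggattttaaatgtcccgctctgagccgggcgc
CDKN1B: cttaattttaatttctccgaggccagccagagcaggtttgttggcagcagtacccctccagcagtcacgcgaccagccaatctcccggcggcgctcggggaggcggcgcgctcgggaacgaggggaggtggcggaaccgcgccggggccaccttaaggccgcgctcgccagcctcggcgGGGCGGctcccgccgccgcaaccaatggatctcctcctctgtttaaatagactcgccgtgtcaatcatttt
The CCNE1 window held 7 GC boxes and the CDKN1B window 1. Such windows, ending just before the first base of the gene, were found for 5 of the 10 G1 genes (CDK4, CDK6, CCNE1, CDKN1B and CDKN2C). Of the 5, 4 held a GC box, against 42.6% of 35116 promoter windows of the same length. On both strands, and counting overlapping matches, none of the 5 held the STAT motif TTCNNNGAA, which 6.57% of all windows held, or TTTNGCGC, 1 form of the E2F motif (1.51%). Nor did any hold the CRE motif TGACGTCA (1.65%) or the forkhead motif GTAAACA (2.98%). Only these exact letters were searched. Other forms of these sites, among them other E2F sites, were not looked for and may be present. CCND1, CCND2, CCND3, CCNE2 and RB1 were not examined in this way.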

How the data were processed

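Total RNA of INA-6 cells (Trizol) was labelled with Cy3 and hybridised to a custom Agilent array, 1 array per sample. The authors deposited log2 intensities, normalised between arrays by the quantile method. R 2.9.0 and limma are listed as tools by the submitters' processing notes. The sources used here do not state a background subtraction. Each of the 6 columns holds 243504 spots without a missing value, and they share 1 distribution (sorted values differed by at most 0.199), so values were used as deposited and differences are relative to the average spot. Between 0.719% and 0.9% of spots per array lay at the ceiling of 16, where differences are understated. The number of arrays limits the precision.

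Spots were paired with the probe table through the grid of the array, an inference from the data: the levels of different probes of 1 gene correlated at r = 0.431 over 7157 genes, against 0.019 with equal numbers. Symbols were updated through a RefSeq gene table (GRCh38.p14); an accession settled 23835 of 27216 probes, a current symbol 2495 and an outdated one 854, and 32 were left as listed. Probes above the array median on at least 3 arrays were tested with limma 3.58.1 in R 4.3.3 (lmFit, eBayes, two-sided, Benjamini-Hochberg, threshold 0.05, no block), all probes together and, for counts of genes, with the probe of the highest mean per gene. All probes of the 10 genes are given. Of each pathway list every gene past the threshold and the 2 with the smallest p are named, and the 3 genes most like the G1 gene with the smallest p. MAF, FOXO1, KLF2, FOXO3 and FOXO4 were named outside this rule, after their values were seen. The G1 genes and all lists were chosen with earlier results of these data known. Same-numbered arrays did not deviate together, so the samples were not treated as paired.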

Additional observations from a re-analysis of the deposited data

How the results depend on the processing

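The log2 differences of the tested G1 probes were recomputed under alternative filters, priors, normalisation, adjustment over named probes only, the replicate block and with each array left out. Of these values 180 kept direction and side of the threshold, 4 passed it, all for CCNE2, and 10 changed sign, each without 1 array. The number of G1 probes and of G1 genes past the threshold, 0 as reported, was 1 and 1 without the spots at the ceiling and with the trend and robust prior. It was also 1 and 1 with the interquartile range filter, which kept no G1 probe other than that of CCNE2. Without 1 array it was 0 to 1 for probes, with 1 without restimulated replicate 3. The spots at the ceiling have no variance and enter the prior of the fit; otherwise the cause was not tested. Without 1 array the differences of probes that changed sign ranged from −0.116 to 0.196 (CCND1, 2nd probe), −0.207 to 0.13 (CCND3, 2nd), −0.12 to 0.0853 (CCNE1), −0.309 to 0.0416 (CDK4), −0.0898 to 0.138 (CDK6, 2nd) and −0.0966 to 0.0265 (RB1, 1st). Without a change of sign they ranged from −0.405 to −0.109 for CDKN2C, the value nearest 0 coming without withdrawn replicate 2, 0.0698 to 0.365 and 0.0565 to 0.21 for the 1st and 3rd CCND1 probes, 0.0627 to 0.298 for the 1st CDK6 probe, and 0.669 to 0.872 for CCNE2. With the replicate number as a block, 0 of the pathway genes passed, against 1, 0 probes and 1 gene passed in all, and CCNE2 had an adjusted p of 0.276. The deviations of same-numbered arrays from their group means correlated at −0.011, −0.072 and −0.258, and those of other pairs at −0.163 to 0.184. With 3 arrays a group these correlations cannot tell whether same-numbered arrays came from 1 culture, and the labels do not say. Over all probes 2239 passed as reported, 3580 without ceiling spots (58 genes), 3860 with the trend and robust prior (78 genes) and 320 to 1042 without 1 array (6 to 15 genes, against 31). With the interquartile range filter, which a difference between the groups itself helps a probe to pass, 3590 of the 5746 probes kept passed (74 genes). Adjusted over the 18613 tested probes with a symbol, 30 passed and CCNE2 had an adjusted p of 0.22. With few arrays and 1 probe for several genes, small changes of G1 mRNAs cannot be resolved.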
